A study of Mus musculus with 12 samples.

Results

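The comparison of the cortex of MRL/lpr mice with that of MRL/+ mice covered 8 of the 12 cortices profiled in the study, 4 in each group, chosen by their labelled strain. MRL/lpr mice carry the lpr mutation of Fas on the MRL background, and MRL/+ mice, labelled MRL/MpJ, are the parental strain with intact Fas. All 8 mice were adult females of about 12 weeks taken in diestrus, and no treatment is given for either group. The MRL/lpr mice were bred at Biogen Idec and the MRL/+ mice were bought from the Jackson Laboratory, so that strain and source cannot be told apart. The remaining 4 cortices came from lpr mice that lack Fn14 and are not compared here. They entered the filter on spots and the fit, in its dye term, its array correlation and the spread between mice. In the corrected analysis described below they also entered the quantile normalization and the search for unevenly bright regions. RNA of each cortex was labelled with Cy3 (replicates 1 and 3) or Cy5 (replicates 2 and 4), and 2 mice of 1 group were hybridized to each Agilent array.

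Fas is a death receptor of the tumor necrosis factor receptor superfamily, and its loss lets lymphocytes that would otherwise die accumulate. MRL/lpr mice therefore develop lymphadenopathy, autoantibodies and a lupus-like disease, together with changes in mood and memory that make the strain a common model of neuropsychiatric lupus. The cortex contains excitatory neurons and interneurons, astrocytes, the myelin-forming oligodendrocytes, microglia and the cells of its vessels, and a dissected block can also include strips of hippocampus, ventricle wall, choroid plexus or meninges. In bulk tissue, fewer cells of a type and less RNA per cell cannot be told apart.

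Signals are given as multiples of the median spot of a mouse's own channel, after correction for background, and differences are log2 values of MRL/lpr over MRL/+. Fas was examined first as a check of the labels. The lpr allele holds a retrotransposon in an intron and keeps the exons, and where the probe lies relative to it was not analysed here. It measured 0.165, 0.284, 0.171 and 0.191 in MRL/lpr and 0.458, 0.647, 0.186 and 0.643 in MRL/+. The single MRL/+ mouse at 0.186 fell among the MRL/lpr mice while the other three lay above them, and the difference was -1.14 ± 0.45 (SE; limma adjusted p 0.1003). The difference thus missed the threshold, and the library of MRL/+ replicate 3 read Fas at the level of the MRL/lpr mice. The probe was called well above background in 3 MRL/lpr and 2 MRL/+ mice, and with the corrections described next the difference was -0.47 (limma adjusted p 0.0406).

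Across the array, 17302 genes were tested, with a median standard error of 0.25. At a limma adjusted p under 0.05, 1044 genes (6.03% of those tested) were higher and 1448 (8.37%) lower in MRL/lpr. In 2290 of these 2492 genes the 4 values of one group lay wholly above those of the other. Such separation was a condition for naming most of the genes below, so it adds no support to them. The groups could not be separated from the hybridization, because each group had a slide and a scanning day of its own. Of the called genes 41.9% were higher, and 23.9% (708 higher and 2260 lower) when channels were scaled to their 75th percentile, which moved the median difference of all genes from -0.10 to -0.34. Leaving out MRL/+ replicate 4 left 337 higher and 444 lower genes, and leaving out MRL/+ replicate 3 gave 1713 and 3838. Correlations of log2 signals were 0.913 to 0.983 between the mice sharing an array and 0.875 to 0.954 between mice of different groups.

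A pair of array features moved with the groups. The first was the brightness of empty spots: the dark control spots of the MRL/+ mice read in Cy5 had medians of 209 and 202 intensity units, against 27.4 to 54.8 in the other 6 mice. The median difference rose with the level of the gene, from -1.07 in the lowest decile of the genes to 0.24 in the brightest, and 886 of the 1448 lower genes lay in the 4 dimmest deciles. The second was a set of streaks in which neighboring spots were unevenly bright, which took up 6.95% and 5.24% of the spots of the MRL/lpr arrays and 0.135% and 0.353% of those of the MRL/+ arrays. Between the mean values of the MRL/lpr arrays 151 genes differed at least 8-fold, and between the MRL/+ arrays 0 did. Their part in any single difference was not tested, and the counts of the gene groups are therefore also given without the streaks and after quantile normalization of all channels, which is called the corrected analysis. In it 15812 genes were tested, of which 14.7% were higher and 15.7% lower in MRL/lpr, and the median difference of every decile lay between -0.09 and 0.06. Of the genes called first and tested again, 945 of 995 remained called higher and 1200 of 1404 called lower. One gene, Elk1 (a transcription factor of the ETS family, named after its values were seen), was called higher at first (0.85) and lower in the corrected analysis (-1.38), which kept 1 of its 2 spots.

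**Figure D1:**
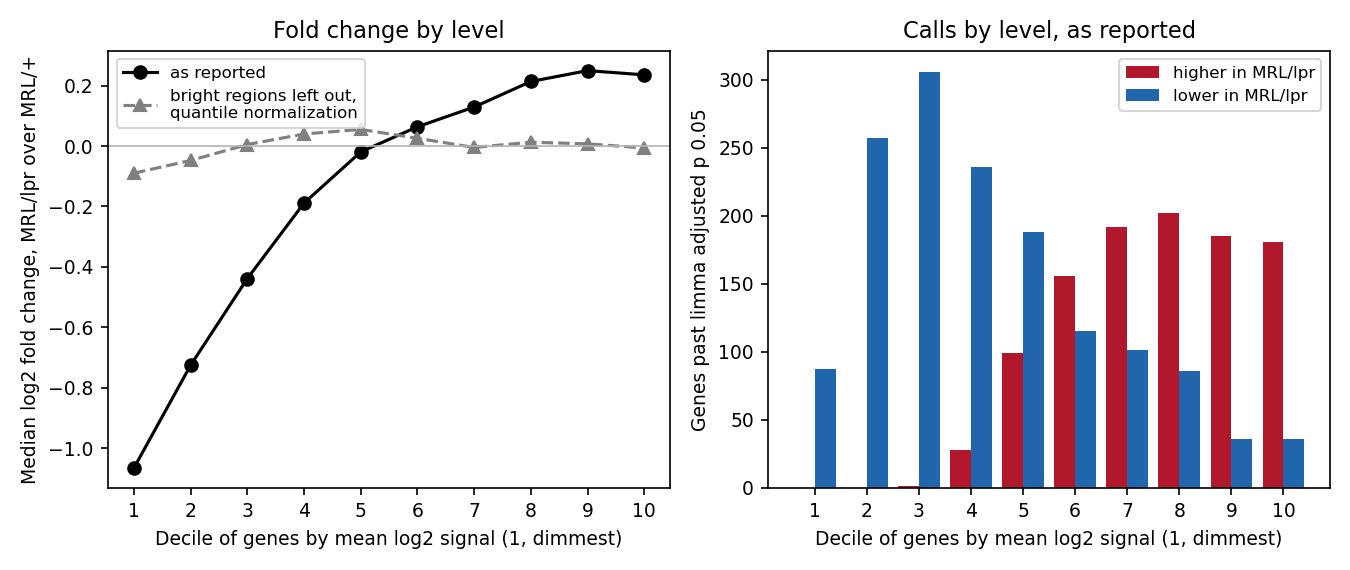
Median log2 fold change of MRL/lpr over MRL/+ in each decile of the 17302 genes by mean signal (left; solid line as reported, dashed line with bright regions left out and quantile normalization) and number of genes past limma adjusted p 0.05 in each decile (right; bars start at 0). Lower genes lie mostly in the dim deciles and higher genes in the bright ones, and the dashed line stays between -0.09 and 0.06.

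**Figure D2:**
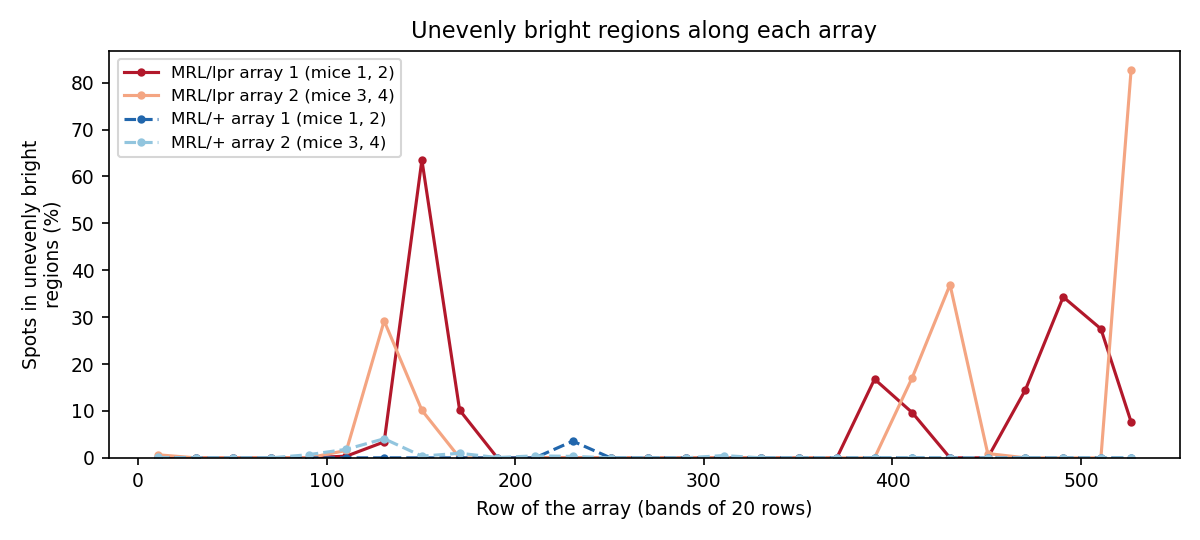
Share of spots that lie in unevenly bright regions (percent, vertical axis) in bands of 20 rows of each array (horizontal axis), 1 line for each of the 4 arrays. The MRL/lpr arrays (solid) have peaks at different rows, while the MRL/+ arrays (dashed) stay close to 0.

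The largest rise was that of Rasgef1c (a guanine nucleotide exchange factor for Ras-family GTPases), which measured 8.996, 6.96, 8.56 and 6.65 in MRL/lpr and 0.594, 0.868, 0.844 and 1.39 in MRL/+. Every MRL/lpr mouse was above every MRL/+ mouse, and the difference was 3.13 ± 0.47 (SE; limma adjusted p 0.00164). Myl4 (the atrial and embryonic light chain of myosin) measured 8.43, 7.34, 5.51 and 6.74 in MRL/lpr and 0.827, 0.826, 0.883 and 1.08 in MRL/+, a difference of 2.95 ± 0.30 (SE; limma adjusted p 0.000259), again with no overlap. Dkkl1 (a secreted protein related to the dickkopf Wnt antagonists) was at 5.15 to 7.11 in MRL/lpr and 0.508 to 1.42 in MRL/+, a difference of 3.05. Lamp5 (a membrane protein of GABAergic presynapses) measured 11.9, 12.3, 7.47 and 14.3 in MRL/lpr and 1.63, 1.81, 1.58 and 2.24 in MRL/+, and the groups did not overlap (difference 2.64). Snhg11, a non-coding RNA of neurons, Tcap, the titin cap protein of sarcomeres, and Vmn1r65, a vomeronasal receptor, rose by 2.75, 2.52 and 2.48. Of the 10 highest genes, Jade1, Cited4 and Zdhhc22 had spots within a bright streak of an MRL/lpr array. Zdhhc22 (a palmitoyltransferase) measured 9.21, 34.4, 3.82 and 3.15 in MRL/lpr and 0.896, 1.33, 1.28 and 1.99 in MRL/+, and its difference went from 2.57 to 1.69 in the corrected analysis. Jade1 (2.85) and Cited4 (2.67) had no spot outside the streaks.

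Among the genes that were lower in MRL/lpr, Klk8 (kallikrein 8 or neuropsin, an extracellular serine protease of the forebrain) measured 0.446, 0.566, 0.366 and 0.425 in MRL/lpr and 3.78, 3.26, 4.97 and 3.46 in MRL/+. Its groups were far apart, with a difference of -3.10 ± 0.25 (SE; limma adjusted p 6.8e-05). Lrrc10b, a leucine-rich repeat protein, measured 0.507, 0.592, 0.373 and 0.2998 in MRL/lpr and 3.44, 2.72, 3.66 and 3.84 in MRL/+, a difference of -2.98 ± 0.48 (SE; limma adjusted p 0.00248). Pfn1 (profilin 1, which binds actin monomers and promotes filament growth) was at 0.682 to 1.41 in MRL/lpr and 7.37 to 10.5 in MRL/+, and fell by 2.98. Ap2a2, a subunit of the clathrin adaptor complex of endocytosis, was lower by 2.70 (0.376 to 0.904 against 3.36 to 6.83), and Crym (crystallin mu, which binds thyroid hormone in the cytosol) differed by -2.70. Crym measured 1.805, 2.37, 5.09 and 2.81 in MRL/lpr and 21.5, 18.03, 25.8 and 10.9 in MRL/+, so that the highest MRL/lpr mouse had less than the lowest MRL/+ mouse. The others of the 10 lowest were Dlk1 (-2.92), a non-canonical Notch ligand, Thsd4 (-2.86), Sln (-2.74), the sarcolipin regulator of calcium pumps, and Spink8 (-2.81) and Olfml2b (-2.74), whose only spots lay in a streak.

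**Figure D3:**
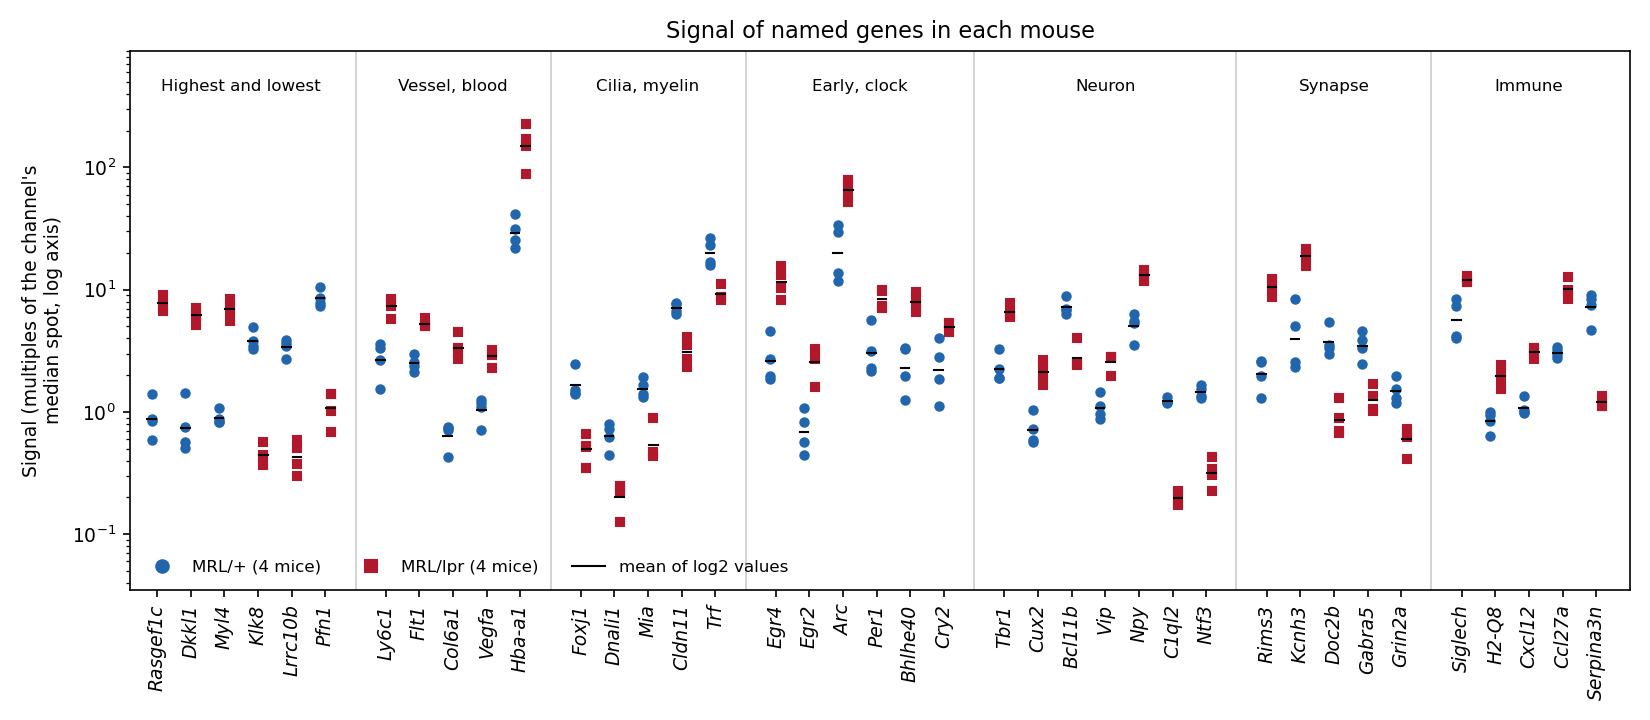
Signal of named genes (multiples of the channel's median spot, log axis) in each of the 4 MRL/+ mice (circles) and 4 MRL/lpr mice (squares), with the mean of the log2 values as a short line, grouped by function. In each gene shown, the 4 mice of one group lie wholly above the 4 of the other, which was a condition for naming these genes.

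All endothelial genes that passed the test were higher in MRL/lpr. Of 19 endothelial and blood-brain barrier genes tested, of 20 on the array, 6 rose (31.6%, against 6.03% of all genes) and none fell. The median difference was 0.53, against -0.10 over all genes. In the corrected analysis 7 of 15 rose, and without the Cy5 mice of MRL/+ 4 of 19 did. Ly6c1 (a surface antigen of brain endothelium) measured 5.76, 8.44, 8.14 and 7.33 in MRL/lpr and 3.61, 2.64, 3.34 and 1.53 in MRL/+, a difference of 1.47 ± 0.30 (SE; limma adjusted p 0.00827). Flt1 (vascular endothelial growth factor receptor 1) measured 5.86, 5.03, 5.06 and 5.13 in MRL/lpr and 2.13, 2.36, 2.57 and 3.002 in MRL/+, a difference of 1.07 ± 0.22 (SE; limma adjusted p 0.00761). In both genes the groups did not overlap. The other four were Slco1a4, an organic anion transporter of the blood-brain barrier (1.05), Esam, an adhesion molecule of endothelial junctions (0.98), Tjp1, the tight junction scaffold ZO-1 (0.86), and Abcb1a, the P-glycoprotein efflux pump (0.73), whose only spot lay in a streak. The defining markers of the list did not all move: Cldn5, the main claudin of these junctions, Pecam1, Cdh5 and Kdr stood at 0.80, -0.24, -0.89 and 0.11 without passing the test, of which Pecam1 passed in the corrected analysis (0.34, limma adjusted p 0.02201). The 2 probes of Kdr passed in opposite directions by limma, the bright one at -0.73 (adjusted p 0.0400) and the dim one at 0.59 (0.0450).

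Vegfa, the growth factor that Flt1 binds, measured 2.297, 3.09, 2.94 and 3.196 in MRL/lpr and 1.26, 1.099, 1.17 and 0.716 in MRL/+ and rose by 1.46 (limma adjusted p 0.00261). Of its 2 probes, the bright one rose by 1.75 (adjusted p 0.00257) and the dim one stood at -0.77 (0.158), both by limma. Of 11 pericyte and smooth muscle genes, Pdgfrb (the receptor that recruits pericytes, 0.61) and Vtn (vitronectin, 1.16) rose and none fell, and 6 rose and 1 fell of 10 in the corrected analysis. Without the Cy5 mice of MRL/+ 0 of the 11 were called. Of 15 meningeal and collagen genes 3 rose and none fell, while 4 rose and 1 fell in the corrected analysis and 2 rose without the Cy5 mice of MRL/+. The fibroblast collagens Col1a1 (-0.07), Col1a2 (0.81) and Col3a1 (0.18) did not pass the test. Col6a1, a chain of collagen VI, was at 3.01, 3.33, 4.47 and 2.697 in MRL/lpr and 0.733, 0.706, 0.755 and 0.424 in MRL/+, a difference of 2.38 ± 0.22 (SE; limma adjusted p 0.00017), and no MRL/lpr mouse came near the MRL/+ range. Col4a1 and Col4a2, the paired chains of basement membrane collagen, rose by 0.86 and 1.03.

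Of 9 erythroid genes tested, 2 rose (22.2%) and none fell, and 3 of 8 rose and 1 fell in the corrected analysis. Both that rose are globins, which mark red blood cells left in the tissue. Hba-a1 (an alpha globin) measured 149, 225, 172 and 88.8 in MRL/lpr and 31.2, 25.3, 41.3 and 22.03 in MRL/+, and Hbb-b2 (a beta globin) 49.5, 71.3, 59.6 and 27.04 in MRL/lpr and 9.38, 7.55, 14.96 and 9.78 in MRL/+. Both sets were apart, with differences of 2.37 and 2.28 (limma adjusted p 0.00456 for each). The other globins tested, Hba-a2 (1.63, limma adjusted p 0.0673) and Hbb-b1 (0.42, limma adjusted p 0.449), did not pass. The geometric mean of the 9 erythroid genes ran from 7.96 to 14.8 in MRL/lpr and from 5.46 to 7.12 in MRL/+, beside 1.46 to 1.87 and 1.03 to 1.26 for the 19 endothelial genes. Whether retained blood has a part in the endothelial difference was not tested.

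Genes of motile cilia moved the other way. Of 10 ependymal and cilia genes tested, of 12 on the array, 7 were lower (70%, against 8.37% of all genes) and none higher in MRL/lpr (median difference -1.42), and 8 of 9 were lower in the corrected analysis (median -1.10). Foxj1 (the master transcription factor of motile ciliogenesis) measured 0.346, 0.516, 0.658 and 0.528 in MRL/lpr and 1.398, 1.42, 1.52 and 2.46 in MRL/+, a difference of -1.73 ± 0.27 (SE; limma adjusted p 0.001801). Dnali1, an axonemal dynein light chain, measured 0.126, 0.236, 0.248 and 0.224 in MRL/lpr and 0.627, 0.728, 0.441 and 0.796 in MRL/+, a difference of -1.65 ± 0.29 (SE; limma adjusted p 0.00359). The lowest MRL/+ mouse was above the highest MRL/lpr mouse for both. Mia, Cfap126, Ccdc153, Tekt1 and Tekt4 were lower as well, with differences of -1.53, -1.58, -1.93, -1.31 and -1.03, and the tektins among them are filament proteins of the ciliary doublet. The mean level of the list ran from 0.324 to 0.502 in MRL/lpr and from 0.689 to 1.06 in MRL/+. Without the Cy5 mice of MRL/+, 2 of the 10 were still called lower, and the median was -1.38.

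Ependyma lines the ventricles beside the choroid plexus, so the choroid genes are given with it. Of 12 choroid plexus genes tested, Clic6 (an epithelial chloride channel protein) fell and none rose, with a median difference of -1.29, and 1 of 9 fell in the corrected analysis. The list level of the MRL/lpr mice was 0.464, 0.616, 2.19 and 0.795 and that of the MRL/+ mice 1.19, 2.09, 0.957 and 3.75. The mice of the 2 groups overlapped, and MRL/lpr replicate 3 had more than 3 times the level of replicate 1. Clic6 itself measured 0.198, 0.321, 1.88 and 0.443 in MRL/lpr and 1.46, 2.799, 2.18 and 6.19 in MRL/+ (difference -2.51, SE 0.78, limma adjusted p 0.0486).

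Of 19 oligodendrocyte and myelin genes, 5 were lower (26.3%) and 1 higher in MRL/lpr (median difference -0.37). In the corrected analysis 7 were lower and 1 higher, and without the Cy5 mice of MRL/+ 3 were lower and 1 higher. Cldn11 (the claudin of myelin tight junctions) measured 2.72, 2.34, 3.54 and 4.11 in MRL/lpr and 7.58, 6.704, 7.79 and 6.38 in MRL/+, a difference of -1.19 ± 0.21 (SE; limma adjusted p 0.00398). Trf (transferrin, made by oligodendrocytes in the brain) was at 8.16 to 11.2 in MRL/lpr and 15.9 to 26.5 in MRL/+, lower by 1.14, and Opalin, a sialoglycoprotein of myelin, was lower by 1.08. Mbp (myelin basic protein) differed by -1.63, but its brighter spot lay in a streak and the remaining spot gave 0.07 (limma adjusted p 0.804). Ermn (ermin, an actin-binding protein of myelinating cells) went the other way, from 6.01 to 13.5 in MRL/+ to 15.8 to 32.4 in MRL/lpr (1.22). Its dim probe stood at -0.45 without passing the test. The mean level of the list was 2.26 to 3.18 in MRL/lpr and 3.04 to 4.26 in MRL/+, and the ranges overlapped by 1 mouse of MRL/+.

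Immediate early genes, which neurons transcribe within minutes of activity, were mostly higher in MRL/lpr among those that passed. Of 25 tested, of 29 on the array, 7 rose (28.0%) and 1 fell (median difference 0.62). In the corrected analysis 9 of 21 rose and none fell (median 0.61), and without the Cy5 mice of MRL/+ 5 of 25 rose and none fell. Egr4, a zinc finger factor of the early growth response family, measured 10.3, 8.24, 13.3 and 15.6 in MRL/lpr and 2.71, 1.87, 4.59 and 1.98 in MRL/+, a difference of 2.14 ± 0.31 (SE; limma adjusted p 0.00139). Its relative Egr2 measured 3.25, 1.61, 2.73 and 3.01 in MRL/lpr and 0.442, 0.565, 1.07 and 0.823 in MRL/+, a difference of 1.90 ± 0.34 (SE; limma adjusted p 0.00399). Arc, the activity-regulated cytoskeletal protein of dendrites, measured 72.2, 58.2, 52.6 and 79.5 in MRL/lpr and 13.8, 11.8, 29.8 and 33.8 in MRL/+, a difference of 1.69 ± 0.36 (SE; limma adjusted p 0.00967). None of the 3 genes overlapped between the groups, and within MRL/+ the mice of the second array were the higher ones for Egr2 and Arc. Per1, which is both an early gene and a clock gene, was at 9.88, 7.02, 9.76 and 7.28 in MRL/lpr and 3.14, 2.27, 5.61 and 2.17 in MRL/+ (difference 1.46, SE 0.28, limma adjusted p 0.00639). Fos, Egr1 and Nr4a1 made up the 7. Ier2 was the exception at first (-1.22) and did not pass in the corrected analysis (-0.46, limma adjusted p 0.162). The list level was 3.09, 2.48, 3.14 and 3.45 in the MRL/lpr mice and 1.61, 1.48, 2.48 and 2.06 in the MRL/+ mice, so that the lowest MRL/lpr and the highest MRL/+ mouse stood level.

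Of 20 circadian clock genes, 5 rose and 1 fell (median difference 0.43), and 10 of 16 rose and 1 fell in the corrected analysis. Without the Cy5 mice of MRL/+ 1 of the 20 was called. Bhlhe40 (a repressor of clock-driven transcription that is also induced by activity) measured 8.56, 6.61, 9.56 and 7.499 in MRL/lpr and 3.25, 1.96, 3.35 and 1.25 in MRL/+, a difference of 1.81 ± 0.31 (SE; limma adjusted p 0.00344). Cry2, the cryptochrome that closes the negative limb of the clock with the period proteins, measured 5.36, 4.57, 5.32 and 4.51 in MRL/lpr and 2.83, 1.85, 3.99 and 1.12 in MRL/+, a difference of 1.16 ± 0.33 (SE; limma adjusted p 0.0331). Rorb (0.69), a nuclear receptor that also marks layer IV, and Dbp, an output gene of the clock, rose as well. Bhlhe41, the close relative of Bhlhe40, fell by 1.52, and by 0.61 in the corrected analysis. Bhlhe41 had a mean signal of 0.255, in the lowest decile of genes, whose median difference was -1.07. With 1 mouse left out it passed in 1 of 8 settings. The time of day at which the cortices were taken is not given in the sources used here. The genes that glucocorticoids induce did not share one direction: Hsd11b1, which regenerates corticosterone, Fkbp5, a co-chaperone of the glucocorticoid receptor, and Zbtb16 fell by 1.11, 0.98 and 0.71, while Per1 rose.

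Because these early genes moved together, the bases before their transcription starts were read from the RefSeq promoter windows (build GRCm38.p6). Shown are the 250 bases before the start of Egr4 (chr6:85513590-85513839, minus strand), Egr2 (chr10:67537680-67537929, plus strand, the most downstream of 5 listed starts) and Per1 (chr11:69098699-69098948, plus strand, the first of 2). Capitals mark TGACG, the core of the cAMP response element, CACGTG, the E-box that the clock factors bind, and the CArG box of serum response factor, each on either strand.

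Egr4: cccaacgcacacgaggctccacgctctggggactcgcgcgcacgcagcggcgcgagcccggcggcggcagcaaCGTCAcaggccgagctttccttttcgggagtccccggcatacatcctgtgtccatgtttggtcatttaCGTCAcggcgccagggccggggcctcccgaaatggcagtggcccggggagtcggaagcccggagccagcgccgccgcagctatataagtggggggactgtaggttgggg

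Egr2: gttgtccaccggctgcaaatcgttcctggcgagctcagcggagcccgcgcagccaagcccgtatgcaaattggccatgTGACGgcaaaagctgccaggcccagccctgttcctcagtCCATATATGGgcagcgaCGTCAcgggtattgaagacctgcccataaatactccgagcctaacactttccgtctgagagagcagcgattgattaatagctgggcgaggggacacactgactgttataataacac

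Per1: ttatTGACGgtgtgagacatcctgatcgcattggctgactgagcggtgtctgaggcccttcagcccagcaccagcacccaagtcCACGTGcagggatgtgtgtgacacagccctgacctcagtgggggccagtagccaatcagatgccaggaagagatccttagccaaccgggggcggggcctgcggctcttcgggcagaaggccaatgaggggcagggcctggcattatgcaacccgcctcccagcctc

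TGACG lay in 17.8% of all 32851 windows and in 53.1% of the 32 windows of the 20 tested early genes that have one, CACGTG in 6.02% and 15.6%, and the CArG box in 1.47% and 12.5%. All 5 of the risen early genes with a window held TGACG, in 8 of their 10 windows. By gene, 14 of the 20 tested early genes and 19.8% of all genes with a window held it. The 4 windows with a CArG box all belonged to Egr2. These are matches of letters and were not tested for binding.

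**Figure D4:**
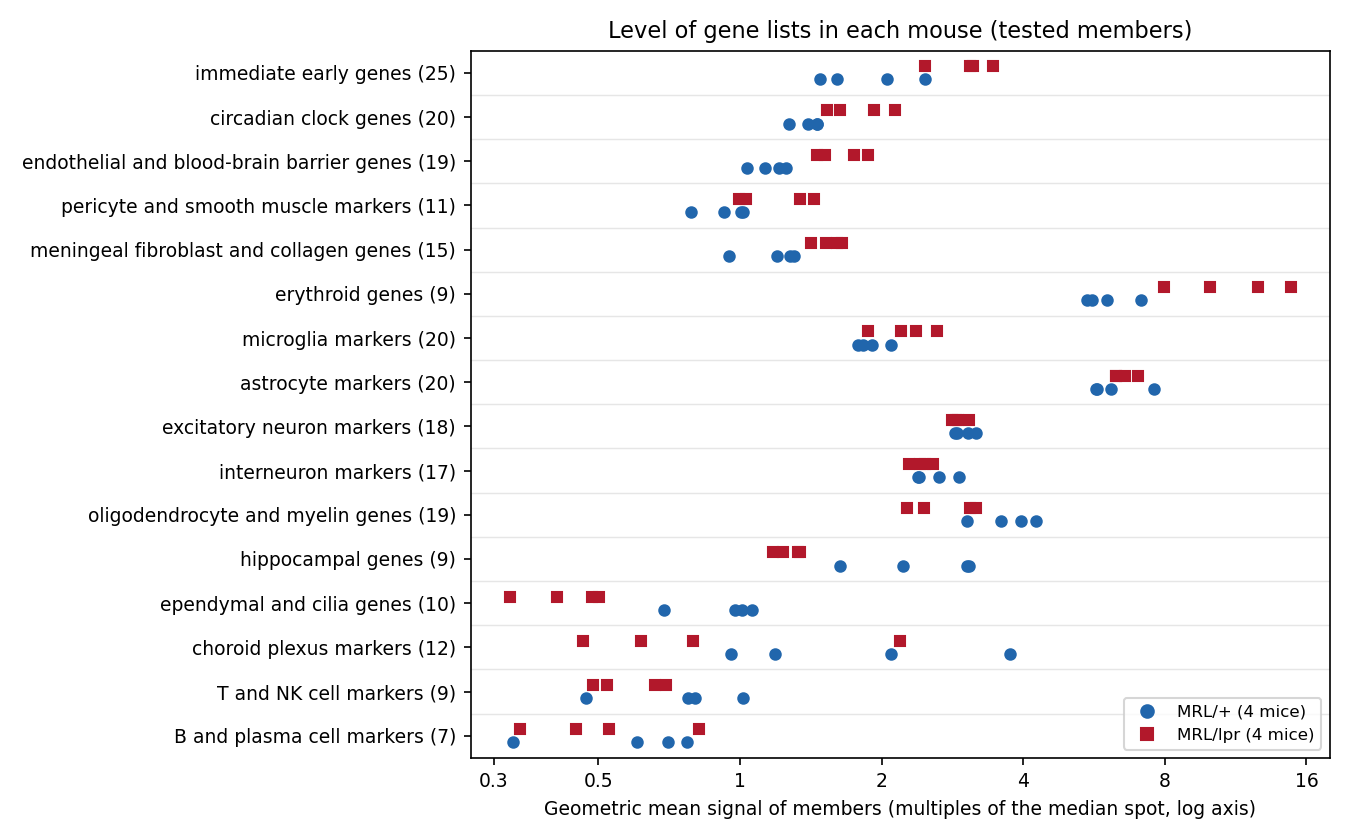
Geometric mean signal of the tested members of 16 gene lists (number of members in parentheses) in each MRL/+ mouse (circles) and MRL/lpr mouse (squares), as multiples of the channel's median spot on a log axis. The ependymal and hippocampal lists stand apart toward lower and the endothelial and erythroid lists toward higher values in MRL/lpr, while the neuron, astrocyte and choroid plexus lists overlap.

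The levels of the neuron marker lists overlapped between the groups. The level of the 18 excitatory markers was 2.82 to 3.06 in MRL/lpr and 2.87 to 3.17 in MRL/+, and that of the 17 interneuron markers 2.28 to 2.58 and 2.39 to 2.92. Within the excitatory list, 4 genes rose and 4 fell, as did 4 and 4 of 16 in the corrected analysis, which had no value for Neurod6. Tbr1 (a T-box factor of deep-layer projection neurons) measured 6.48, 7.72, 6.01 and 6.05 in MRL/lpr and 2.23, 1.898, 3.25 and 1.9 in MRL/+, a difference of 1.53 ± 0.28 (SE; limma adjusted p 0.00432). Cux2, a homeobox factor of the upper layers, measured 1.65, 1.91, 2.37 and 2.63 in MRL/lpr and 0.564, 0.726, 0.5898 and 1.04 in MRL/+, a difference of 1.57 ± 0.35 (SE; limma adjusted p 0.0115). Emx1, a homeobox factor of the dorsal telencephalon, and Rorb rose by 0.74 and 0.69. Bcl11b (Ctip2, a factor of subcerebral projection neurons that is also high in hippocampus and striatum) was lower, at 2.51, 2.47, 3.99 and 2.401 in MRL/lpr and 6.88, 6.36, 8.82 and 6.96 in MRL/+ (difference -1.37, SE 0.23, limma adjusted p 0.00291). Neurod2 (-0.95) and Neurod6 (-1.70), proneural factors of excitatory neurons, also fell, the second on a spot within a streak. Slc17a7, the vesicular glutamate transporter, was the fourth. Both probes of Cux2 pointed upward, and the dim probe of Tbr1 stood at -1.13 without passing the test.

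Among the interneuron markers, the peptides Vip, Npy and Crh and the calcium buffer Pvalb rose. Vip measured 2.83, 2.802, 1.97 and 2.83 in MRL/lpr and 0.959, 0.879, 1.12 and 1.45 in MRL/+, a difference of 1.26 ± 0.21 (SE; limma adjusted p 0.00292). Npy measured 11.8, 13.7, 12.4 and 14.6 in MRL/lpr and 6.32, 5.36, 5.51 and 3.52 in MRL/+, a difference of 1.37 ± 0.26 (SE; limma adjusted p 0.00565), and Pvalb and Crh differed by 1.03 and 0.95. The groups did not overlap in Vip, Npy or Pvalb, while Gad1 (0.51), Gad2 (-0.05), Slc32a1 (0.56) and Sst (-0.02), which mark inhibitory neurons broadly or a further class of them, did not pass the test. The 4 markers that fell were Nos1 (-1.90), the neuronal nitric oxide synthase, Htr3a (-1.50), a serotonin-gated channel, and the homeobox factors Dlx2 (-0.996) and Dlx5 (-1.26). All 8 were also called in the corrected analysis.

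Most genes known for their expression in hippocampus that passed the test were lower. Of 9 tested, of 14 on the array, 5 fell (55.6%) and 1 rose (median difference -0.51), in the corrected analysis 4 of 8 fell and 1 rose, and without the Cy5 mice of MRL/+ 4 fell and none rose. C1ql2 (a synaptic organizer of mossy fibers) measured 0.173, 0.218, 0.178 and 0.225 in MRL/lpr and 1.32, 1.21, 1.22 and 1.18 in MRL/+, a difference of -2.64 ± 0.21 (SE; limma adjusted p 6.8e-05). Lct, the lactase gene that is expressed in the dentate gyrus, measured 0.558, 0.506, 0.482 and 0.546 in MRL/lpr and 3.62, 2.204, 3.24 and 0.745 in MRL/+, a difference of -2.005 ± 0.52 (SE; limma adjusted p 0.0244). Homer3 (-1.46), Neurod1 (-0.51) and Spink8 (-2.81) fell, and Mpped1 rose (1.36). Wfs1 (-0.13), Grik4 (-0.18) and Bok (0.04) did not pass the test. The list level ran from 1.18 to 1.34 in MRL/lpr and from 1.64 to 3.06 in MRL/+, with no overlap. Of the 9 thalamic and cerebellar genes 1 rose and 2 fell (11.1% and 22.2%, against 6.03% and 8.37% of all genes). In the corrected analysis 2 of 8 rose and 3 fell. Prkcd, a protein kinase C that marks thalamus, fell, at 0.658, 0.7905, 0.9196 and 0.621 in MRL/lpr and 2.37, 2.39, 4.59 and 3.46 in MRL/+ (difference -2.06, SE 0.28, limma adjusted p 0.00102). The markers Tcf7l2 (-0.18), Slc17a6 (-0.68) and Ramp3 (0.91 and 0.99 on its 2 probes) did not pass the test. The share of hippocampus in the dissected blocks is not known, and its part in the differences of Crym, Bcl11b, Neurod6, Klk8 and other genes expressed there was not tested.

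Calls among transmission genes went in both directions. The shares over all genes were 6.03% higher and 8.37% lower, and 14.7% and 15.7% in the corrected analysis. Of 51 genes of synaptic vesicle release, 6 rose and 5 fell (median 0.02), and 7 of 48 rose and 10 fell in the corrected analysis. Rims3, a scaffold of the active zone, measured 10.1, 11.3, 8.71 and 12.2 in MRL/lpr and 1.97, 2.57, 2.61 and 1.301 in MRL/+, a difference of 2.37 ± 0.37 (SE; limma adjusted p 0.00213), although its dim probe stood at -1.16 without passing the test. Stx1a (syntaxin 1A, a SNARE of the plasma membrane), Unc13b (the priming factor Munc13-2) and Rims2 rose by 1.51, 1.39 and 0.81. Doc2b, a calcium sensor of spontaneous and asynchronous release, fell, from 3.497, 2.97, 5.48 and 3.34 in MRL/+ to 0.666, 0.899, 1.303 and 0.701 in MRL/lpr, a difference of -2.11 ± 0.30 (SE; limma adjusted p 0.00118). The synaptotagmins Syt17 and Syt3 fell by 1.42 and 0.98. Dnajc5, the cysteine string protein that chaperones SNAREs, rose by 1.59, with its bright probe at 1.66 and its dim probe at -1.05, each past the limma threshold.

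Of 25 glutamate receptor genes, 6 fell and 1 rose, and 9 of 23 fell and 2 rose in the corrected analysis. Grin2a, the NMDA receptor subunit of mature synapses, measured 0.624, 0.731, 0.416 and 0.6801 in MRL/lpr and 1.55, 1.31, 1.97 and 1.18 in MRL/+, a difference of -1.30 ± 0.30 (SE; limma adjusted p 0.0156). Grin2d (-1.35), Grina (-0.77), an NMDA receptor-associated protein, and Grid1 (-0.73), an orphan delta receptor, also fell, with Grin2b and Grm4, and Gria4, an AMPA receptor subunit, rose (0.72). Of 27 GABA transmission genes, 4 fell and 1 rose, and 5 of 26 fell and 1 rose in the corrected analysis. Gabra5 and Gabrb1, subunits of the GABA-A receptor, fell by 1.47 and 0.79. Gabra5 measured 1.34, 1.06, 1.7 and 1.01 in MRL/lpr and 4.56, 3.31, 3.87 and 2.46 in MRL/+, with no overlap. Gabrd, the subunit of extrasynaptic receptors, rose by 1.68 on a spot within a streak.

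Of 73 potassium channel subunits, 10 were higher and 12 lower, and without the Cy5 mice of MRL/+ 9 were higher and none lower. Of the 68 in the corrected analysis 15 were higher and 18 lower. Kcnh3 (a voltage-gated channel of forebrain neurons) measured 21.6, 19.7, 18.6 and 15.7 in MRL/lpr and 5.03, 2.58, 8.32 and 2.31 in MRL/+, a difference of 2.24 ± 0.32 (SE; limma adjusted p 0.00119). Kcnf1, a modulatory subunit, rose by 1.73, and by 0.83 in the corrected analysis, which dropped 1 of its 2 spots. The G protein-gated channels were split: Kcnj9 rose (1.64, on a spot within a streak) and Kcnj3 fell by 1.18. Kcnip2, which tunes A-type currents, fell by 1.17. Among 21 calcium channel genes, 3 rose and 4 fell, including Cacnb4 (1.21) and Cacng5 (-1.60), and 4 of 19 rose and 7 fell in the corrected analysis. Of 41 genes of monoamine and acetylcholine transmission, 5 fell and 1 rose, and 6 of 35 fell and 4 rose in the corrected analysis. Ache (acetylcholinesterase) measured 0.727, 0.556, 0.875 and 0.7297 in MRL/lpr and 1.71, 1.67, 1.67 and 1.299 in MRL/+, a difference of -1.15 ± 0.16 (SE; limma adjusted p 0.001202). The adrenergic receptor Adra1d and the serotonin receptor Htr5b fell by 1.52 and 2.05, the second on a probe called well above background in 3 MRL/lpr and 2 MRL/+ mice.

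Of 22 neurotrophic factors and receptors, 2 rose and 6 fell, and 3 of 21 rose and 7 fell in the corrected analysis. Ntf3 (neurotrophin 3, the ligand of TrkC) measured 0.226, 0.303, 0.431 and 0.339 in MRL/lpr and 1.34, 1.296, 1.54 and 1.67 in MRL/+, a difference of -2.20 ± 0.24 (SE; limma adjusted p 0.000369). All MRL/lpr mice lay below all MRL/+ mice. The receptors of the GDNF family were split, with Gfra2 higher (1.16) and Gfra1 (-1.26) and Ret (-1.47) lower, and Gfra1 did not pass in the corrected analysis (limma adjusted p 0.0926). Ret had a mean signal of 0.258, in the lowest decile of genes, whose median difference was -1.07. Cntfr, the receptor of ciliary neurotrophic factor, fell by 0.90.

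Calls in the immune lists went in both directions, beside shares over all genes of 6.03% higher and 8.37% lower (14.7% and 15.7% corrected). Of 25 genes of MHC class I and peptide loading, 4 rose and none fell, and 9 of 22 rose and 2 fell in the corrected analysis. Without the Cy5 mice of MRL/+ 0 of the 25 were called, where 388 of all 17302 genes were higher and 483 lower. H2-Q8, a non-classical class I gene, measured 2.18, 2.43, 1.53 and 1.85 in MRL/lpr and 0.945, 0.996, 0.638 and 0.843 in MRL/+, a difference of 1.22 ± 0.29 (SE; limma adjusted p 0.0154). H2-K1, the classical class I heavy chain of the K locus, was at 2.43 to 4.15 in MRL/lpr and 1.05 to 1.92 in MRL/+ (1.29), and H2-Q2 and H2-T23 rose by 1.05 and 1.12. With 1 mouse left out, H2-K1 and H2-T23 each passed in 3 of 8 settings. These genes share long stretches of sequence, so a probe of one can bind transcripts of another. Of 17 chemokines and their receptors that passed the filter, of 55 on the array, 4 rose and none fell, and 7 rose in the corrected analysis. Without the Cy5 mice of MRL/+ 2 of the 17 rose and 0 fell. Cxcl12 (the chemokine of vessels and neurons that binds CXCR4) measured 3.02, 3.33, 2.699 and 3.301 in MRL/lpr and 0.985, 1.34, 1.03 and 1.004 in MRL/+, a difference of 1.51 ± 0.17 (SE; limma adjusted p 0.000509), with the dim probe at -0.51 without passing. Ccl27a measured 9.78, 12.7, 8.37 and 10.03 in MRL/lpr and 2.75, 2.9, 3.396 and 3.22 in MRL/+, a difference of 1.72 ± 0.23 (SE; limma adjusted p 0.000829). Cx3cl1 (fractalkine, by which neurons signal to microglia) rose by 1.04.

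The interferon-stimulated genes depended on the processing. Of 33 tested, Stat2 (0.65), Irf9 (0.90), both subunits of the factor that drives the interferon response, and Gbp3 (0.91), a guanylate-binding protein, rose and none fell, with a median of -0.18. In the corrected analysis 10 of 31 rose and 1 fell, with a median of 0.31. Without the Cy5 mice of MRL/+ 0 of the 33 were called, with a median of 0.10. The median signal of this list was 0.416, below the 1.07 of all genes. Of 20 microglia markers, Siglech and Aif1 (the calcium-binding protein IBA1) rose and none fell, and 4 of 19 rose and 1 fell in the corrected analysis. Without the Cy5 mice of MRL/+ 0 of the 20 were called. Siglech measured 11.5, 11.9, 11.6 and 12.9 in MRL/lpr and 4.003, 4.18, 8.46 and 7.36 in MRL/+, a difference of 1.08 ± 0.28 (SE; limma adjusted p 0.0263), and the groups did not overlap. Cx3cr1 (0.40), P2ry12 (0.32), P2ry13 (-0.19), Tmem119 (0.39) and Csf1r (0.52), the defining markers, did not pass the test, and the list level of 1.87 to 2.62 in MRL/lpr overlapped with 1.78 to 2.10 in MRL/+.

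Few lymphocyte genes could be tested. Of 9 T and NK cell genes that passed the filter on dim spots, of 20 on the array, Zap70 fell and none rose, and in the corrected analysis none was called. Of 7 B and plasma cell genes, of 13 on the array, 0 were called by limma in either analysis, and 1 was higher and 1 lower at an unadjusted p under 0.05 by limma, with 0 by the t-test that the methods name. The levels of both lists overlapped between the groups, at 0.487 to 0.698 in MRL/lpr and 0.472 to 1.02 in MRL/+ for T and NK genes. In the 6 neutrophil and monocyte genes, Csf3r (the receptor of granulocyte colony-stimulating factor) rose, from 5.44, 2.04, 7.802 and 1.305 in MRL/+ to 17.7, 15.7, 19.9 and 13.1 in MRL/lpr (difference 2.33, SE 0.49, limma adjusted p 0.00967), and Chil3 fell, while 2 rose and none fell in the corrected analysis.

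**Figure D5:**
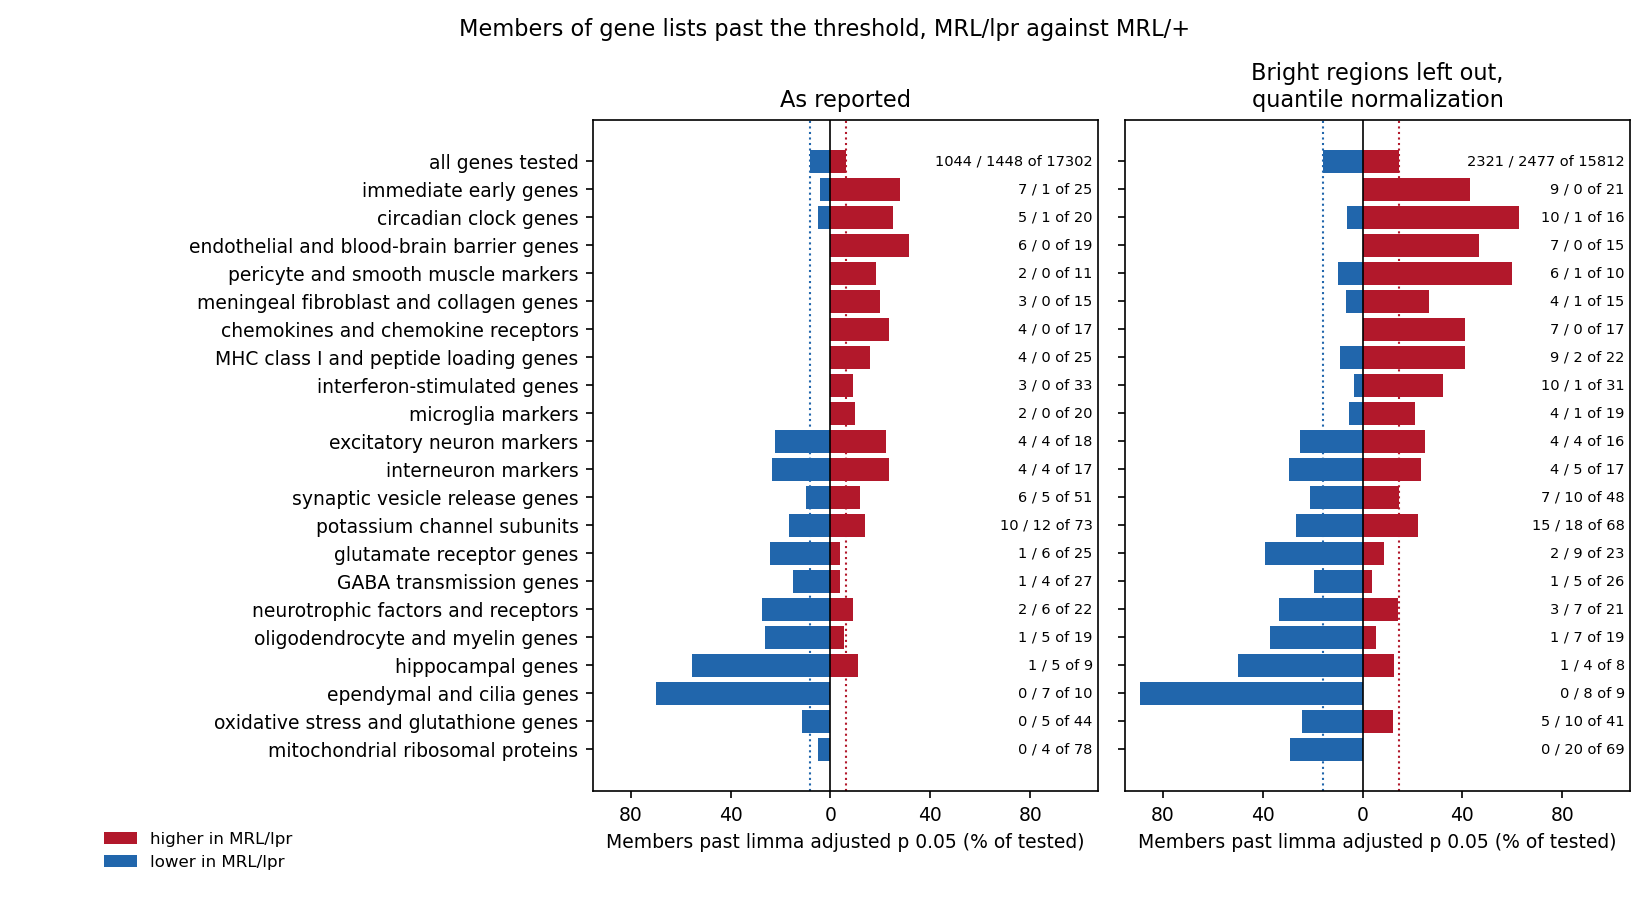
Percent of the tested members of each list that passed limma adjusted p 0.05, to the right for higher and to the left for lower in MRL/lpr, as reported (left panel) and with bright regions left out and quantile normalization (right panel). Numbers at the right give higher / lower of tested, and dotted lines mark the percentages over all genes, such as 6.03 and 8.37 in the left panel.

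Of 30 interleukins and their receptors, 2 rose and 5 fell, and 4 of 29 rose and 6 fell in the corrected analysis. Il16, a chemoattractant that neurons also express in a form of their own, measured 0.155, 0.279, 0.178 and 0.242 in MRL/lpr and 1.35, 1.098, 1.18 and 0.6901 in MRL/+, a difference of -2.34 ± 0.33 (SE; limma adjusted p 0.00113). Il1r1 and Il13ra1 fell by 1.08 and 1.56, while Il13ra2, the decoy receptor of interleukin 13, rose by 1.09. Il13ra1 had a mean signal of 0.235, in the lowest decile of genes, whose median difference was -1.07. With 1 mouse left out it passed in 2 of 8 settings. Of 21 TNF ligands and receptors, Tnfrsf21 (death receptor 6) fell, at 0.755, 0.466, 0.595 and 0.814 in MRL/lpr and 2.55, 2.16, 3.05 and 2.24 in MRL/+ (difference -1.95, SE 0.31, limma adjusted p 0.00211), and Tnfrsf19 (TROY) rose by 0.99, with its dim probe at -1.01 without passing. Of the same 21 genes 6 rose and 2 fell in the corrected analysis. Of 30 apoptosis genes 1 rose and 1 fell, and 4 of 27 rose and 4 fell in the corrected analysis. The one that fell was Trp53, which measured 0.177, 0.174, 0.149 and 0.251 in MRL/lpr and 0.8396, 0.872, 0.666 and 0.953 in MRL/+, a difference of -2.16 ± 0.35 (SE; limma adjusted p 0.00235). Of 31 NF-kappaB pathway genes 1 rose and 4 fell, and 5 of 30 rose and 5 fell in the corrected analysis, and Ikbkg, the regulatory subunit of the kinase of this pathway, fell by 1.23. Of 8 MHC class II genes 1 fell and none rose, of 15 complement genes 1 rose and 1 fell, and of 15 microglial activation genes 1 fell and none rose. These counts were 1 lower of 6, 2 higher of 13 and 4 lower of 14 in the corrected analysis.

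Of 20 astrocyte markers, Atp1b2 (0.96) rose and Slc4a4 (-1.20) and Slc7a10 (-0.73) fell, and 1 rose and 3 fell in the corrected analysis. The first shares, 5% higher and 10% lower, were near the 6.03% and 8.37% of all genes. In the corrected analysis the shares over all genes were 14.7% and 15.7%. Gfap (-0.58), Aqp4 (-0.20), Slc1a2 (-0.30), Slc1a3 (0.13) and Aldh1l1 (0.68), the defining markers, did not pass the test. Of 17 genes of reactive astrocytes, Aspg and Srgn rose and Serpina3n and Fkbp5 fell, and 4 of 16 rose and 2 fell in the corrected analysis. Serpina3n (a secreted serine protease inhibitor) measured 1.12, 1.34, 1.22 and 1.11 in MRL/lpr and 9.04, 7.502, 8.41 and 4.67 in MRL/+, a difference of -2.59 ± 0.31 (SE; limma adjusted p 0.000517), and the groups were far apart.

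In the lists of protein synthesis and energy metabolism the counts depended on the processing. Of 83 cytosolic ribosomal proteins 2 rose and 1 fell, and 5 of 81 rose and 5 fell in the corrected analysis. Of 82 respiratory chain and ATP synthase subunits 2 rose and none fell, whereas in the corrected analysis 4 of 77 rose and 10 fell. Both of the latter shares were below those of all genes in that analysis (14.7% higher and 15.7% lower). Of 78 mitochondrial ribosomal proteins 4 fell and none rose, and 20 of 69 fell in the corrected analysis, with a median of -0.19. Of 44 proteasome subunits Psma7 rose and Psmb2 fell, the latter at 0.229, 0.209, 0.196 and 0.307 in MRL/lpr and 1.299, 1.14, 1.697 and 0.993 in MRL/+ (difference -2.44, SE 0.41, limma adjusted p 0.00287). Of 41 proteasome subunits in the corrected analysis 4 rose and 10 fell. Of 44 oxidative stress and glutathione genes 5 fell and none rose, but 10 of 41 fell and 5 rose in the corrected analysis. Gstm6 and Gstm7, glutathione S-transferases of the mu class whose sequences are alike, measured 0.338 to 0.426 and 0.388 to 0.448 in MRL/lpr and 1.03 to 1.201 and 0.993 to 1.19 in MRL/+. Catalase, which breaks down hydrogen peroxide (Cat), fell by 1.08, and Gss fell by 0.86 but did not pass in the corrected analysis. Of 37 actin cytoskeleton genes Pfn1 and Arpc5 fell (-0.83 for the latter) and none rose, and 10 of 35 fell and 2 rose in the corrected analysis. Atf4, the transcription factor of the integrated stress response, was the one unfolded protein response gene of 24 that passed (1.45), with its dim probe at -0.05, and 3 of 22 rose and 2 fell in the corrected analysis.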

How the data were processed

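Cortex RNA of 12 mice was hybridized to 6 Agilent two-color mouse 4x44K arrays, each with 2 mice of 1 group, and the deposited values are spot and local background intensities that the authors took from the scanner with Agilent Feature Extraction, without further normalization. The depth of an array is set by its number of spots. Spots marked uneven or outlying, or below 2 times the local background in any mouse, were left out, which kept 24255 of 43020 spots. Intensities were background-corrected (normexp, offset 50), each channel was divided by its median spot, and a gene took the mean of its spots. The log2 values were fitted with limma 3.58.1 in R 4.3.3, over all 12 mice, with a dye term and the array as random block (correlation 0.316), moderated with a trend, and adjusted by Benjamini-Hochberg. Streaks were found in windows of 7 by 7 spots. Python 3.11.15 and matplotlib 3.10.9 drew the figures and read the promoters. The labels do not say whether mice shared a litter, so p-values measure the spread between these mice.

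Members and gene lists were chosen with earlier results of these data known. Genes were named when they were among the 10 highest or lowest or, in each list, the up to 4 lowest adjusted p in each direction, had groups that did not overlap, were called well above background in at least 2 mice of each group, and were not in the text of the study. The first 5 markers of a cell type and Fas were added. Elk1, Tjp1, Abcb1a, Tekt1, Tekt4, Fos, Egr1, Nr4a1, Dbp, Crh, Grik4, Bok, Grin2b and Grm4 were named after their values were seen. Gene names are those of the array's design, and a gene with several probes is given by the mean of its spots, among which 27 of 91 named genes with more than 1 probe had probes of opposite sign. Some called members of the lists are not reported here by name. The scripts were tested on simulated data. Alternatives covered background, scaling, filters, dye and array terms, and mice left out.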

Additional observations from a re-analysis of the deposited data

Results flagged for a closer look

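Of 290 groups of 4 mice examined for the named genes, 11 held 1 mouse far from the other three, where chance gives about 1 in 20 groups, and of 44 groups examined for the level of gene lists 1 did. Among the MRL/lpr mice, replicate 1 stood high for Tcap (3.804), Flt1 (5.86) and Dlx2 (0.537) and low for Dnali1 (0.126), replicate 3 stood high for Mia (0.896) and Bcl11b (3.99) and low for Vip (1.97), and replicate 2 stood high for the list of reactive astrocyte genes (1.12). Among the MRL/+ mice, replicate 4 was low for Col6a1 (0.424) and Ache (1.30) and high for Foxj1 (2.46), and replicate 2 was high for Cxcl12 (1.35). Values are multiples of the channel's median spot.

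Of the 12306 genes that were left out of the fit, with no spot that passed the filters on dim and on uneven or outlying spots in every mouse, 401 had a probe called well above background in all 4 MRL/lpr mice and in none of the 4 MRL/+ mice, and 0 genes showed the opposite. The dark control spots of the Cy5 mice of MRL/+ were brighter than those of the other mice, and their part in this difference was not tested.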

How the results depend on the processing

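Of the 144 named genes past the threshold, 84 to 137 stayed past it when 1 mouse was left out, and none turned. Bhlhe41 and Abcb1a stayed past it in 1 of these 8 settings, and Clic6, Tekt4, Neurod1, Vtn, Grid1, Il13ra1 and Elk1 in 2. The count of genes past the threshold ran from 781 to 5551 without 1 mouse (337 to 1713 higher, 444 to 3838 lower). Without MRL/lpr array 1 it was 1068 (585 higher, 483 lower), without MRL/lpr array 2 it was 1570 (781 lower), and without MRL/+ array 2 it was 4252 (2846 lower). It rose to 5140 (2077 and 3063) with plain background subtraction, 4151 (1696 and 2455) with the dark control background, 4740 (2014 and 2726) with loess and Aquantile, 5189 (2117 and 3072) without the array block, and 4549 (1627 and 2922) in the Cy5 mice. Scaled to the 75th percentile 2260 genes were lower. It fell to 1356 (613 and 743) in the Cy3 mice. By the methods' t-test it was 1320 (565 and 755) after Benjamini-Hochberg and 4738 (1920 and 2818) unadjusted. With no filter on dim spots it was 22 of 29149 genes (18 and 4), and 5 of the 144 named genes passed. Chosen after seeing the data were quantile normalization (4440; 1904 and 2536), leaving out the streaks (1604 higher), both together (4798; 2321 and 2477), and leaving out both Cy5 mice of MRL/+ (871; 388 and 483). The causes of these shifts were not tested.

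With the replicate number as a block in place of the dye term, 5597 genes passed (2056 and 3541) and all 144 named genes stayed past the threshold. The numbers were not taken as pairs, since the labels give no shared litter or day. Deviations of same-numbered mice correlated at 0.0814 to 0.340, over 0.1 in 3 of 4 pairs, and those of different-numbered mice at -0.327 to 0.303. Odd numbers were read in Cy3 and even ones in Cy5, so these values cannot tell pairing from dye.

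Named genes that changed sign were Cx3cl1 with the scanner's processed signal (-0.042), Neurod1 with no filter on dim spots (0.089), Mbp with both corrections (0.068), and Elk1, at -0.48 with log2 values averaged over spots, -1.77 without the streaks and -1.38 with both. Levels near the background limit the dim genes, and the offset compresses their differences. The median difference of the lowest decile was also -1.07 as first reported, against -0.09 in the corrected analysis.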

Other observations

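Several further gene groups had members in both directions, as did all genes, of which 6.03% were higher and 8.37% lower. Of 66 MAP kinase cascade genes 6 were higher and 5 lower in MRL/lpr, of 96 ubiquitin conjugating and ligase genes 6 and 5, of 63 splicing factors and hnRNPs 3 and 3, and of 63 heat shock proteins and chaperonins 4 and 3. In the corrected analysis these counts were 11 and 8 of 61, 12 and 11 of 91, 10 and 10 of 59, and 8 and 10 of 59. All genes had shares of 14.7% higher and 15.7% lower there. Of 31 postsynaptic scaffold genes 3 rose and 4 fell, among them Homer3, which is also in the hippocampal list, and of 29 keratins and keratin-associated proteins 1 rose and 7 fell, and in the corrected analysis 5 and 8 of 30 and 2 and 8 of 28. The 18 striatal projection neuron genes had 0 calls by limma (5 higher and 2 lower at an unadjusted p under 0.05, and 2 and 1 by the t-test of the methods after Benjamini-Hochberg), with a list level of 1.80 to 2.42 in MRL/lpr and 1.30 to 2.02 in MRL/+. The 99 olfactory and vomeronasal receptors, which the cortex is not known to use, had a median difference of -0.81, and of 0.02 in the corrected analysis.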
